A study of Mus musculus with 16 samples.

Results

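The genes described here are 10 genes of the alveolar type 2 cell, the surfactant-making cell of the lung, measured in whole-lung RNA of mice given bleomycin or phosphate-buffered saline (PBS). They are the surfactant protein genes Sftpa1, Sftpb, Sftpc and Sftpd, the lipid and lamellar body genes Abca3, Lamp3 and Lpcat1, the protease genes Napsa and Ctsh, and the phosphate transporter gene Slc34a2. They were chosen by name, as every spot annotated to 1 of these symbols, which gave 12 spots of 62976 and 10 genes of 20863. Sftpb and Sftpd had 2 spots each and the other 8 genes had 1. All 10 genes were bright enough to be tested among 20304 genes.

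The samples were lungs of C57BL/6 mice aged 9 to 12 weeks, 1 array per sample. All mice received a target site blocker, an oligonucleotide that masks the place where a microRNA would bind its transcript. It was instilled intratracheally on 3 occasions, 4 days and 2 days ahead of the bleomycin or PBS instillation and again 4 days later. Bleomycin, at 1 unit/kg, injures the lung and leads to fibrosis. The 4 groups were bleomycin with the CAV1 blocker (6 arrays), bleomycin with the control blocker (6 arrays), PBS with the CAV1 blocker (2 arrays) and PBS with the control blocker (2 arrays). The CAV1 blocker, directed at the Cav1 transcript, was given at 5 mg/kg, and the labels do not state the dose of the control blocker or the day of lung collection. Nor do they state whether every sample came from its own mouse, and p-values therefore reflect the variation among these samples, which may be technical.

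Alveolar type 2 cells make surfactant, a film of lipid and protein that keeps alveoli from collapsing, and they are the stem cells from which the flat type 1 cells are renewed. Surfactant lipid is built into lamellar bodies, secretory organelles in which the small hydrophobic proteins SP-B and SP-C are cut from their precursors, while the larger SP-A and SP-D are collectins that bind microbes and help to clear surfactant. After lung injury some type 2 cells are lost, and others enter a transitional state in which surfactant genes are lowered.

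The deposited values were log2 signals on a common scale, with a median of 6.51 to 6.52 and a maximum of 18.28 in each array. Correlations between arrays over the 120 pairs ran from 0.971 to 0.998. RNA integrity numbers were 9 or 10. Cav1 itself differed by 0.24 (log2, SE 0.126, limma adjusted p = 0.642) between the CAV1 and the control blocker after bleomycin, and did not pass. The PBS control blocker arrays disagreed with each other more than the PBS CAV1 blocker arrays did. The size of the log2 difference between the arrays of a pair had a median over the tested genes of 0.102 in the PBS CAV1 blocker pair and 0.315 in the PBS control blocker pair, and differences of at least 1 made up 0.399% and 7.24% of genes in that order. Skeletal muscle markers, a list of 12 genes, were high in 11 arrays and low in 5, namely PBS CAV1 blocker arrays 1 and 2, bleomycin CAV1 blocker array 3 and bleomycin control blocker arrays 2 and 6.

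Several of the type 2 genes lay within this disagreement. In PBS control blocker array 2, the signal exceeded that of array 1 by at least 1 on the log2 scale at 4 of the 12 spots, both of Sftpb (1.66 and 1.03), that of Lpcat1 (1.50) and that of Napsa (1.03). Slc34a2 followed with 0.97, whereas Lamp3 was lower in array 2 (-0.54). Between the PBS CAV1 blocker arrays the size of the difference was at most 0.26 at any of the 12 spots. Among the bleomycin arrays, CAV1 blocker array 6 departed in the same directions, with Lpcat1 0.89 above and Lamp3 0.50 below the median of the other 5 arrays of its group (differences of 0.89 and -0.50). A Dixon outlier check, the gap of an end value over the range, flagged none of the 24 groups of 6 values. Its ratios in this group were 0.373 for Lpcat1 and 0.392 for Lamp3, against a critical 0.625. Values that rest on these arrays are given below with and without them. Leaving out both arrays together was chosen after seeing the data.

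**Figure D1:**
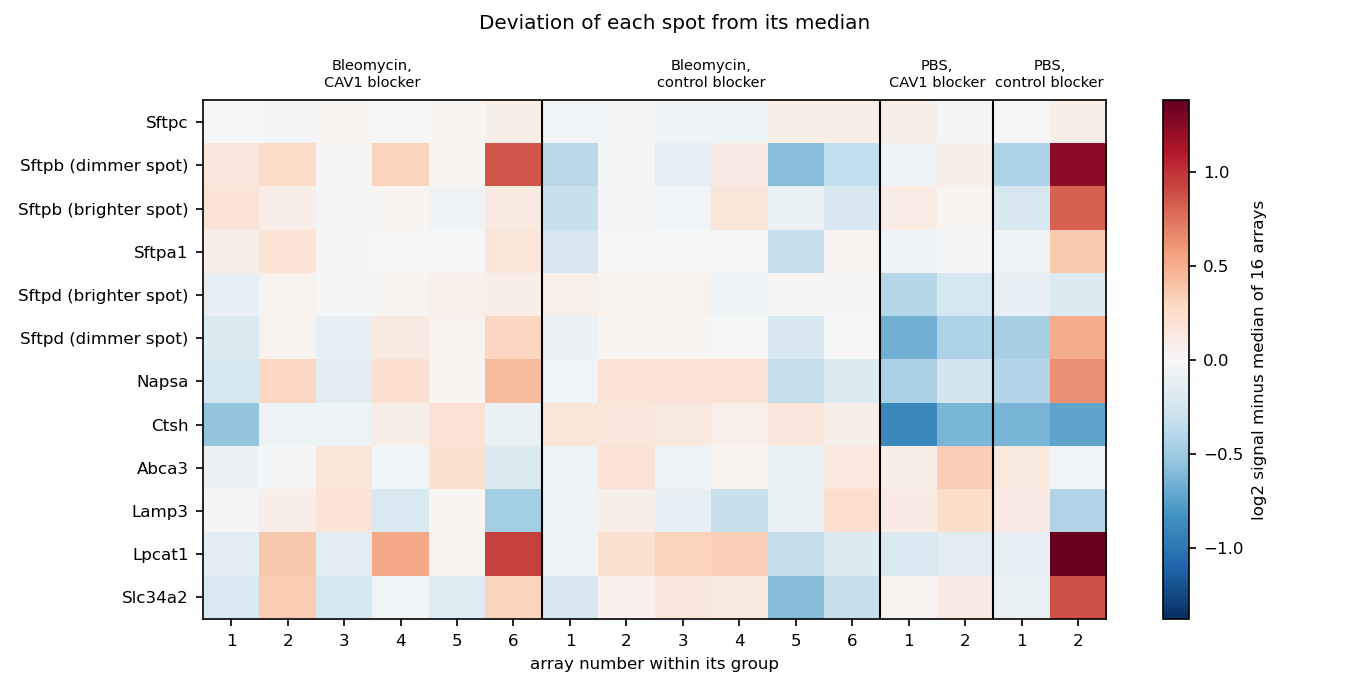
The deviation of each of the 12 spots from its median over the 16 arrays (log2, colour scale) is shown with arrays in columns by group and spots in rows. PBS control blocker array 2 stands out at Sftpb, Lpcat1, Napsa and Slc34a2, and Ctsh is low in all 4 PBS arrays and in bleomycin CAV1 blocker array 1.

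The comparison of bleomycin with PBS asks how the type 2 genes of the injured lung differed from those of the lung without bleomycin. Ctsh, which encodes cathepsin H, rose under both blockers, to 1.75 times the PBS signal under the control blocker and 1.59 times under the CAV1 blocker. None of the other 9 genes passed the test under either blocker. Under the control blocker 1 of the 10 genes was called, against 2.41% of all genes tested, and under the CAV1 blocker 1 of 10, against 0.517%. The median log2 difference over the 10 genes was -0.08 under the control blocker and 0.05 under the CAV1 blocker, beside medians of 0.03 and -0.01 over all genes tested. The control blocker median over the 10 genes was -0.26 without PBS control blocker array 1 and 0.06 without array 2. In these bulk samples, a change in the number of type 2 cells and a change in RNA per cell cannot be told apart.

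Cathepsin H is a lysosomal cysteine protease that trims the precursors of SP-B and SP-C in type 2 cells and is also made by macrophages. Its signal in the bleomycin CAV1 blocker arrays had a lowest value of 15.59, a median of 16.07 and a highest value of 16.33. In the bleomycin control blocker arrays it had a lowest value of 16.20, a median of 16.29 and a highest value of 16.30. The PBS CAV1 blocker arrays read 15.25 and 15.51, and the PBS control blocker arrays 15.49 and 15.41. Every bleomycin array lay above all 4 PBS arrays, with the narrowest gap at bleomycin CAV1 blocker array 1. The log2 difference between bleomycin and PBS was 0.81 under the control blocker (SE 0.139, 95% interval 0.51 to 1.11, limma adjusted p = 0.0166), with group means of 16.26 ± 0.043 (SD, n = 6) after bleomycin and 15.45 ± 0.055 (SD, n = 2) after PBS. Under the CAV1 blocker it was 0.67 (SE 0.139, 95% interval 0.38 to 0.97, limma adjusted p = 0.0463), with group means of 16.05 ± 0.25 (SD, n = 6) and 15.38 ± 0.19 (SD, n = 2). Fits were repeated with 1 array left out. Where that array belonged to the blocker not compared, the difference could not change. Such a fit altered only the spread estimate shared by the groups and the correction over genes. Without PBS control blocker array 2 the difference under the control blocker was 0.77 and did not pass (limma adjusted p = 0.112), and it passed in the 15 fits that each left out 1 of the other arrays. The call under the CAV1 blocker held in 3 of the 16 fits that each left out 1 array, those without PBS control blocker array 1 (limma adjusted p = 0.0362), PBS control blocker array 2 (0.0362) or bleomycin CAV1 blocker array 1 (0.000712). In the other 13, each without 1 of bleomycin CAV1 blocker arrays 2 to 6, bleomycin control blocker arrays 1 to 6 or PBS CAV1 blocker arrays 1 and 2, the adjusted p lay between 0.0550 and 0.573 while the difference stayed between 0.54 and 0.80.

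**Figure D2:**
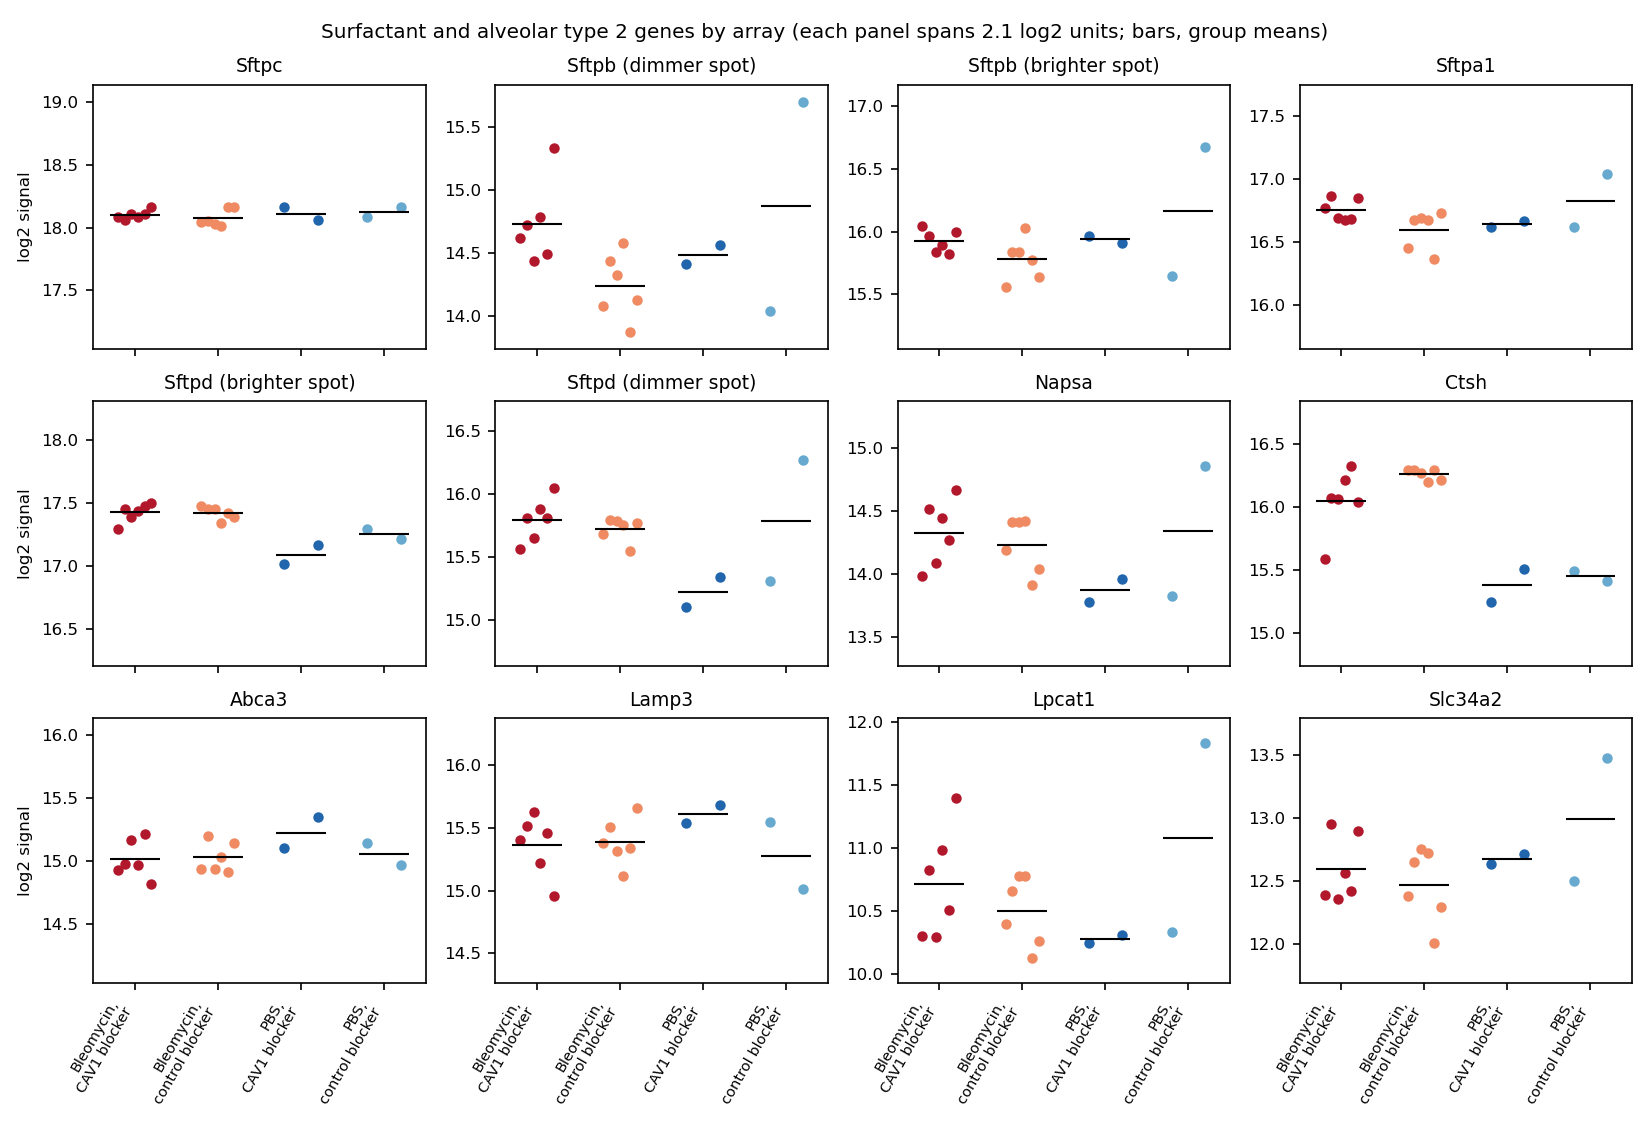
Log2 signal of each of the 12 spots (vertical axis) is plotted for every array by group, with bars at group means. The 12 bleomycin arrays lie between 15.59 and 16.33 for Ctsh, all above the 4 PBS arrays, and PBS control blocker array 2 is the highest array at both Sftpb spots, the dimmer Sftpd spot, Sftpa1, Napsa, Lpcat1 and Slc34a2.

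Markers of recruited macrophages differed between the same groups. The mean log2 signal of the 15 tested genes of the monocyte-derived macrophage list was 10.65 to 12.06 in the bleomycin CAV1 blocker arrays and 11.83 to 12.26 in the bleomycin control blocker arrays. It was 10.39 to 10.43 in the PBS CAV1 blocker arrays and 10.79 to 11.10 in the PBS control blocker arrays. Bleomycin CAV1 blocker array 1, the lowest bleomycin array for Ctsh, was also the lowest bleomycin array for this list. Of the list's 15 tested genes, 6 rose under the control blocker (median 1.20) and 1 rose under the CAV1 blocker (median 1.08), against 398 and 70 of all 20304 genes tested. The risen genes of the list included Ms4a7, Fcgr1, Spp1 and Cx3cr1 under the control blocker and Trem2 under the CAV1 blocker. None of the 6 passed without PBS control blocker array 2, in a fit that called 0.448% of all genes and gave the list a median of 1.73. The part of these cells in the Ctsh difference was not tested.

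Among the surfactant proteins, SP-D, the collectin encoded by Sftpd, had its brighter spot at 17.29, 17.45 and 17.50 (lowest, median and highest) in the bleomycin CAV1 blocker arrays and at 17.34, 17.44 and 17.48 in the bleomycin control blocker arrays. The PBS CAV1 blocker arrays read 17.01 and 17.16, and the PBS control blocker arrays 17.29 and 17.22. All bleomycin arrays lay above the PBS arrays given the same blocker. The log2 difference was 0.34 under the CAV1 blocker (SE 0.0753, 95% interval 0.18 to 0.50, limma adjusted p = 0.0559) and 0.17 under the control blocker (SE 0.0753, 95% interval 0.01 to 0.33, limma adjusted p = 0.283), and neither passed. It passed under the CAV1 blocker without bleomycin CAV1 blocker array 1 (limma adjusted p = 0.013). Leaving out PBS control blocker array 1 or array 2, which are not in that comparison, left the difference at 0.34. The dimmer Sftpd spot differed by 0.57 under the CAV1 blocker (limma adjusted p over all spots = 0.203) and by -0.07 under the control blocker (0.919). The control blocker mean after bleomycin lay 0.41 above PBS control blocker array 1 and 0.55 below array 2 at this spot (differences of 0.41 and -0.55), so the negative value rested on array 2.

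Sftpc, which encodes the hydrophobic protein SP-C and is the defining transcript of the type 2 cell, read between 18.01 and 18.16 in all 16 arrays. Its spot ranked between 2 and 12 of 62976 in every array, close to the maximum of the common scale, and no saturation marks were used here. Arrays in which the spot held the same rank had the same value, 18.16 at rank 2 and 18.08 at rank 4. The same held at other spots, such as the brighter Sftpd spot (17.46 at rank 29) and Ctsh (16.30 at rank 215). Sftpc lay among the brightest spots, close to the maximum, where small differences of the transcript cannot be read from the value. The brighter Sftpd spot ranked between 27 and 64 and Sftpa1 between 62 and 198, and these may share this limit in part. The log2 difference of Sftpc between bleomycin and PBS was -0.01 under the CAV1 blocker (95% interval -0.16 to 0.14). Under the control blocker it was -0.04 (95% interval -0.19 to 0.10). For Sftpc these intervals are no bound on a change of the transcript. The spots of all 10 genes lay above the array median in every array, the lowest value being 10.13 for Lpcat1.

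SP-B, the other hydrophobic protein, is required for lamellar body formation. At the brighter Sftpb spot, the bleomycin CAV1 blocker arrays had a lowest value of 15.82, a median of 15.93 and a highest value of 16.04, and the bleomycin control blocker arrays 15.56, 15.81 and 16.03. The PBS CAV1 blocker arrays read 15.97 and 15.91, and the PBS control blocker arrays 15.65 and 16.68. The groups overlapped, with PBS control blocker array 2 above every other array. The log2 difference was -0.01 under the CAV1 blocker (95% interval -0.41 to 0.38, limma adjusted p = 0.984) and -0.38 under the control blocker (95% interval -0.78 to 0.01, limma adjusted p = 0.33). Without PBS control blocker array 2 the difference under the control blocker was 0.13, and without array 1 it was -0.90. Each of these fits left 1 PBS control blocker array, assumed to vary like the other groups. Sftpa1, which encodes the collectin SP-A, ranged from 16.36 to 17.04 over the 16 arrays. It differed by -0.23 under the control blocker (limma adjusted p = 0.361), by -0.02 without PBS control blocker array 2, and by -0.44 without PBS control blocker array 1. Under the CAV1 blocker Sftpa1 differed by 0.11 (limma adjusted p = 0.705), with every bleomycin array above both PBS arrays.

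Napsin A, the aspartic protease encoded by Napsa, also processes the SP-B precursor. The Napsa signal had a lowest value of 13.99, a median of 14.36 and a highest value of 14.67 in the bleomycin CAV1 blocker arrays, and 13.92, 14.30 and 14.42 in the bleomycin control blocker arrays. It read 13.78 and 13.96 in the PBS CAV1 blocker arrays, and 13.83 and 14.86 in the PBS control blocker arrays. All 6 bleomycin CAV1 blocker arrays lay above both PBS arrays of that blocker, the lowest of them only just, while under the control blocker the bleomycin arrays lay between the PBS arrays. The log2 difference was 0.46 under the CAV1 blocker (95% interval -0.03 to 0.95, limma adjusted p = 0.374) and -0.11 under the control blocker (95% interval -0.60 to 0.38, limma adjusted p = 0.845). The control blocker difference was 0.40 without PBS control blocker array 2 and -0.63 without array 1.

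The lipid genes act in the making and packing of surfactant. Lpcat1 encodes an acyltransferase that remodels phosphatidylcholine into its disaturated surfactant form, Abca3 the transporter that loads lipid into lamellar bodies, and Lamp3 a membrane glycoprotein of lamellar bodies. Slc34a2 encodes the sodium-dependent phosphate transporter of the type 2 cell, which recovers phosphate from the alveolar surface. Promoter sequences of RefSeq (mouse build GRCm38.p6), the 250 bases before the start that its promoter table gives, matched 6 of the 10 genes, and 4 are shown. Lpcat1 and Slc34a2 are given because their signals moved together across arrays, and Lamp3 and Sftpb because they hold letters searched for. The runs lie at chr13:73466981-73467230 (plus strand), chr5:53049103-53049352 (plus strand), chr16:19706366-19706615 (minus strand) and chr6:72304360-72304609 (plus strand), and each is written 5′ to 3′ in the direction of the gene.
Lpcat1: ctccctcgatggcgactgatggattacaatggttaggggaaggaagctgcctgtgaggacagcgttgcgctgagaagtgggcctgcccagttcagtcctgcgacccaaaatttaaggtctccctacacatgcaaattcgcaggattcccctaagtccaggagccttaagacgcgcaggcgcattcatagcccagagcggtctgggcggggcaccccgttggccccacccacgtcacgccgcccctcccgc
Slc34a2: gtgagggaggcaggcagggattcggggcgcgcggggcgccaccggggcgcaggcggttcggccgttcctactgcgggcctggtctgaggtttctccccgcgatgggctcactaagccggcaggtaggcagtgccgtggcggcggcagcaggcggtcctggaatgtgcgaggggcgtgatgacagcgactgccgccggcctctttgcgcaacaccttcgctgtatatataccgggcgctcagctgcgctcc
Lamp3: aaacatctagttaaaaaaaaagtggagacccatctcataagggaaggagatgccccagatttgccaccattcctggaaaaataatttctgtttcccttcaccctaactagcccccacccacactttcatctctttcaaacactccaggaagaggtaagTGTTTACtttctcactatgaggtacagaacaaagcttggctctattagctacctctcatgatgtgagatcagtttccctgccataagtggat
Sftpb: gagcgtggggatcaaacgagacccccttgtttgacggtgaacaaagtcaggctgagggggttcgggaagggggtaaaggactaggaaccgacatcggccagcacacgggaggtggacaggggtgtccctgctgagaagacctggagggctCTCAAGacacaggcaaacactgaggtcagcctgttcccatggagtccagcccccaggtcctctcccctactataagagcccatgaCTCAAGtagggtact
Capitals mark CTCAAG, letters bound by the lung transcription factor NKX2-1, and TGTTTAC, letters bound by FOXA factors, searched on both strands. The 2 searched words share no overlap in these windows. CTCAAG stood at -100 and -15 in Sftpb and at -166 in Sftpa1, counted from that start to the first base of the match, and TGTTTAC stood at -92 in Lamp3. Neither was found in the windows of Abca3, Lpcat1 and Slc34a2, and the table's start for Abca3 lies 102 bases inside its gene record. CTCAAG was present in 13.3% and TGTTTAC in 3.17% of 32851 mouse promoters of the same length. The windows of Slc34a2 and Lpcat1 held 69.6% and 60.8% G or C with 28 and 16 CG pairs, that of Sftpb 58.4% with 7, and that of Lamp3 42.4% with 0, beside a median of 52.4% and 6 over all promoters. A match of letters is a description and no site of binding.

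Lpcat1 read 10.29, 10.66 and 11.39 (lowest, median and highest) in the bleomycin CAV1 blocker arrays and 10.13, 10.53 and 10.78 in the bleomycin control blocker arrays. It read 10.24 and 10.31 in the PBS CAV1 blocker arrays and 10.33 and 11.83 in the PBS control blocker arrays. Arrays within a group spread as widely as the groups differed, and the highest value of all was PBS control blocker array 2. The log2 difference between bleomycin and PBS was 0.44 under the CAV1 blocker (95% interval -0.27 to 1.15, limma adjusted p = 0.58) and -0.58 under the control blocker (95% interval -1.29 to 0.13, limma adjusted p = 0.425). Under the control blocker it was 0.17 without PBS control blocker array 2 and -1.33 without array 1, so the remaining PBS array set its sign.

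Slc34a2 had a lowest value of 12.36, a median of 12.49 and a highest value of 12.95 in the bleomycin CAV1 blocker arrays, and 12.01, 12.52 and 12.75 in the bleomycin control blocker arrays. The PBS CAV1 blocker arrays read 12.63 and 12.72, and the PBS control blocker arrays 12.50 and 13.48. The groups overlapped under both blockers. The log2 difference was -0.08 under the CAV1 blocker (limma adjusted p = 0.918) and -0.52 under the control blocker (95% interval -1.04 to -0.01, limma adjusted p = 0.309). The control blocker difference was -1.01 without PBS control blocker array 1 and -0.04 without array 2, with 1 PBS control blocker array left in each fit.

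Abca3 ranged from 14.82 to 15.34 over the 16 arrays and differed by -0.21 under the CAV1 blocker (95% interval -0.46 to 0.04, limma adjusted p = 0.421) and by -0.03 under the control blocker (95% interval -0.28 to 0.22, limma adjusted p = 0.93). Lamp3 ranged from 14.96 to 15.68 and differed by -0.25 (95% interval -0.62 to 0.12, limma adjusted p = 0.547) and 0.11 (95% interval -0.26 to 0.48, limma adjusted p = 0.794) under the CAV1 and the control blocker. For Lamp3 the control blocker difference was -0.16 without PBS control blocker array 2 and 0.38 without array 1. The groups overlapped for both genes under both blockers. Over the 10 genes, the bleomycin arrays lay wholly above the PBS arrays for 4 genes under the CAV1 blocker (Sftpa1, Sftpd, Napsa and Ctsh), against 8.38% of all genes tested, and for 2 under the control blocker (Sftpd and Ctsh), against 8.55%. They lay wholly below for none of the 10 under either blocker, against 12.3% of all genes under the CAV1 blocker and 4.04% under the control blocker.

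**Figure D3:**
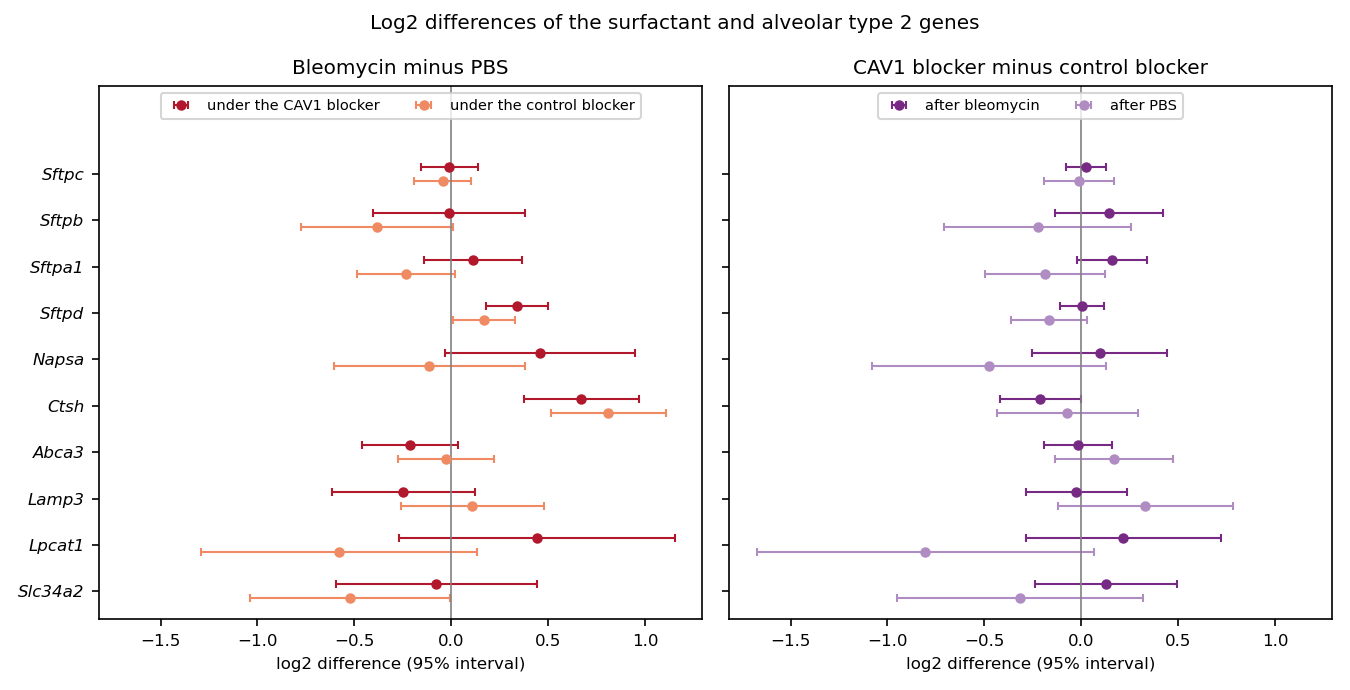
Log2 differences of the 10 genes (horizontal axis, bars 95% intervals) are shown for bleomycin minus PBS under each blocker on the left and for the CAV1 blocker minus the control blocker on the right, in bleomycin and in PBS lungs. On the left, the intervals of Ctsh (0.67 and 0.81) and Sftpd (0.34 and 0.17) lie above 0 under both blockers. That of Slc34a2 lies below 0 under the control blocker, and only Ctsh passed the test. On the right, the after-bleomycin interval of every gene but Ctsh includes 0.

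The comparison of the CAV1 blocker with the control blocker asks whether covering the microRNA site altered these genes. After bleomycin, with 6 arrays a group, none of the 10 genes passed the limma test at an adjusted p, against 1.61% of all genes tested, and 1 of the 10 had an unadjusted p under 0.05, against 9.08%. That gene was Ctsh, at -0.21 (SE 0.0985, 95% interval -0.42 to -0.0015, adjusted p = 0.544), and bleomycin CAV1 blocker array 1 was its lowest array. Leaving out each of the 16 arrays gave Ctsh differences of -0.27 to -0.12, none of which passed. The intervals bound the differences in spot signal that remain possible, from -0.19 to 0.16 for Abca3 up to -0.29 to 0.72 for Lpcat1. For the brighter Sftpd spot the interval was -0.11 to 0.12. That spot ranked between 27 and 64 in the arrays, so its interval is no firm bound on a change of the transcript. The dimmer Sftpd spot differed by 0.07 (SE 0.128). The median over the 10 genes was 0.06, beside -0.01 over all genes tested. No gene had its CAV1 blocker arrays wholly above or below its control blocker arrays, against 1.50% and 0.832% of all genes. At the dimmer Sftpb spot the difference was 0.49 (limma adjusted p over all spots = 0.538), where bleomycin CAV1 blocker array 6 was the highest array of its group, and at the brighter spot 0.15 (0.872).

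After PBS, none of the 10 genes passed the limma test and none had an unadjusted p under 0.05, against 0.310% and 12.8% of all genes tested. Log2 differences between the CAV1 and the control blocker were negative for 8 genes and positive for Abca3 (0.17) and Lamp3 (0.33), with a median of -0.18 beside 0.04 over all genes. When PBS control blocker array 2 was left out, 7 of the 10 were positive and their median was 0.04. The largest was -0.80 for Lpcat1 (SE 0.409, 95% interval -1.68 to 0.07, adjusted p = 0.409). Without PBS control blocker array 1 the differences of Sftpb, Napsa and Lpcat1 were -0.74, -0.99 and -1.56. That fit assumed the lone control array to vary like the other groups. Without array 2 in place of array 1, they were 0.29, 0.04 and -0.05. Sftpd and Lpcat1 had both CAV1 blocker arrays below both control blocker arrays, against 14.7% of all genes. Skeletal muscle markers averaged 6.91 and 7.09 in the PBS CAV1 blocker arrays and 12.51 and 10.14 in the PBS control blocker arrays. Squamous epithelium markers averaged 6.34 and 6.42 against 11.02 and 10.21. The blocker and this tissue content cannot be told apart in PBS lungs. With the muscle level as a covariate the Abca3 difference was -0.03.

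Whether the bleomycin difference itself depended on the blocker was tested as an interaction, the difference under the CAV1 blocker minus that under the control blocker. None of the 10 genes passed, and none of all genes did (0%), with 1 of 10 and 9.22% at an unadjusted p under 0.05. That gene was Lpcat1, at 1.02 (SE 0.472, 95% interval 0.02 to 2.03, limma adjusted p = 0.497). Without PBS control blocker array 1, Sftpb (0.88), Sftpa1 (0.56), Napsa (1.09) and Lpcat1 (1.77) passed, with limma adjusted p of 0.0214, 0.044, 0.035 and 0.0292, in a fit that called 14.8% of all genes. Without array 2 in place of array 1, the interaction of Sftpb was -0.14, that of Slc34a2 -0.04 and that of Lpcat1 0.27, and none of the 10 passed. Without array 2 and bleomycin CAV1 blocker array 6, that of Lpcat1 was 0.14. The PBS groups that enter the interaction differed in muscle content as well as in blocker. With the muscle level as a covariate the interaction of Abca3 was 0.04, beside -0.18 without it.

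Within the 12 bleomycin arrays, Napsa, Lpcat1 and Slc34a2 went up and down together. Over the 45 pairs of the 10 genes, 3 positive correlations and no negative one had a Benjamini-Hochberg adjusted p under 0.05 by Pearson's r, and 3 positive and 1 negative by Spearman's rho, in permutation tests with 100000 resamples. Napsa and Lpcat1 had a Pearson r of 0.95 (permutation p = 1e-05, the smallest the resamples can give, adjusted p = 0.00045) and a Spearman rho of 0.97 (permutation p = 1e-05, adjusted 0.00045). Napsa and Slc34a2 had r = 0.92 (permutation p = 6e-05, adjusted 0.0013) and rho = 0.90 (permutation p = 0.00015, adjusted 0.0034). For Lpcat1 and Slc34a2, r was 0.86 (permutation p = 0.00055, adjusted 0.0082) and rho 0.90 (permutation p = 0.00024, adjusted 0.0036). Leaving out the 2 arrays farthest from the median of the first-named gene gave 0.95, 0.92 and 0.81. Within the 6 CAV1 blocker arrays r was 0.95, 0.88 and 0.80, and within the 6 control blocker arrays 0.99, 0.98 and 0.98. Bleomycin control blocker arrays 5 and 6 were the lowest of their group for Lpcat1 and Slc34a2, and arrays 3 and 4 the highest.

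The negative pair by rank was Sftpb and Ctsh, with rho = -0.78 (permutation p = 0.0039, adjusted 0.044) and r = -0.59 (permutation p = 0.042, adjusted 0.21), and r was -0.47 without the 2 farthest arrays. Within the CAV1 blocker arrays r was -0.81 for this pair, and within the control blocker arrays -0.39. Lamp3 and Lpcat1 had r = -0.71 (permutation p = 0.0097, adjusted 0.088) and rho = -0.57 (permutation p = 0.06, adjusted 0.33), and r was -0.41 without the 2 farthest arrays, so this pair failed the correction and rested partly on those arrays. Sftpa1 and Slc34a2 had r = 0.72 (permutation p = 0.0068, adjusted 0.076) and rho = 0.44 (permutation p = 0.16, adjusted 0.42). For that pair r was 0.50 without the 2 farthest arrays. Sftpb and Sftpa1 had r = 0.60 (permutation p = 0.038, adjusted 0.21) and rho = 0.48 (permutation p = 0.12, adjusted 0.42). Abca3 and Lamp3 had r = 0.69 (permutation p = 0.013, adjusted 0.097) and rho = 0.60 (permutation p = 0.042, adjusted 0.31). Sftpd and Ctsh had r = 0.63 (permutation p = 0.038, adjusted 0.21) and rho = 0.43 (permutation p = 0.16, adjusted 0.42), and r was 0.06 without the 2 farthest arrays. All these genes share the array and its normalization, whose part in the correlations was not tested.

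**Figure D4:**
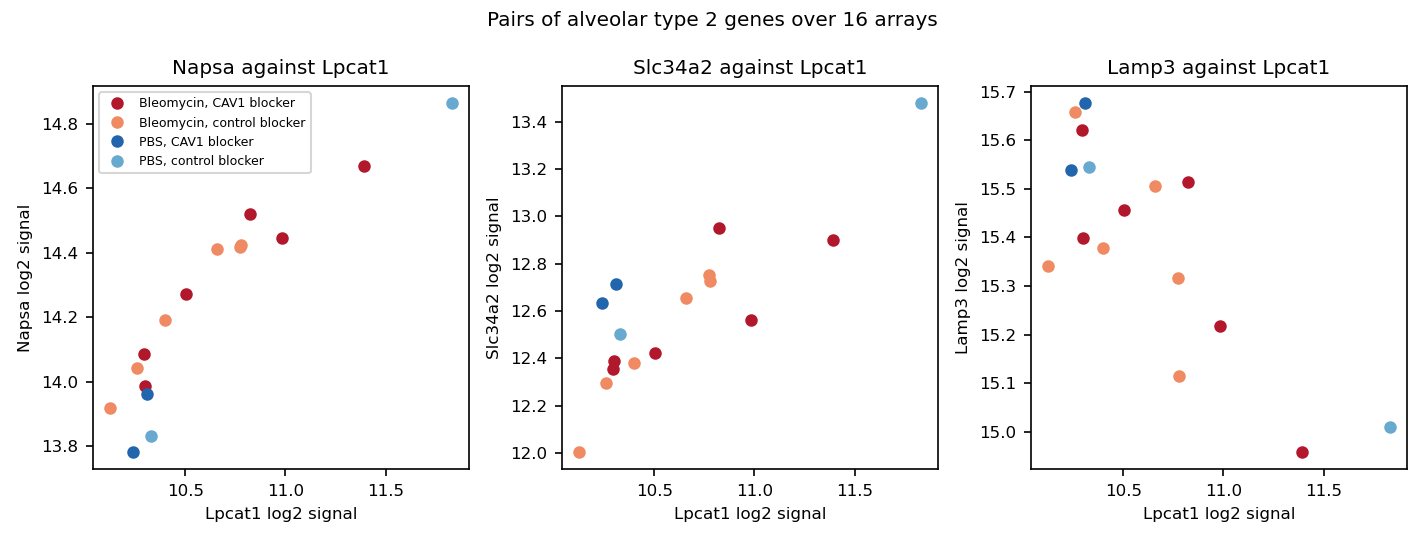
Log2 signals of Napsa, Slc34a2 and Lamp3 (vertical axes) are plotted against Lpcat1 (horizontal axis), 1 point per array coloured by group. Over the 12 bleomycin arrays r was 0.95, 0.86 and -0.71, and PBS control blocker array 2 lies at the far right of each panel.

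Over all 16 arrays, the 5 genes outside the list with the highest mean Pearson correlation with the 10 genes were Tmbim4 and Slc44a4 (0.35 each), Prr15l (0.346), Dram1 (0.345) and Rundc1 (0.339). With Sftpc alone they were Qtrt1 (0.81), Fam32a (0.77), Olfr124 (0.76), Gm10439 (0.76) and Rpl21-ps1 (0.73), over a range of Sftpc of 0.15 on the log2 scale. The Sftpc values followed its rank among the brightest spots.

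Other genes of the type 2 cell and its surfactant were read from lists. Of all 20304 genes tested, 398 rose and 91 fell after bleomycin under the control blocker, and 70 rose and 35 fell under the CAV1 blocker. Of 19 other type 2 markers, bleomycin gave 1 fall under each blocker, Bex2 under the control blocker (-1.36, limma adjusted p = 0.0414) and Acoxl under the CAV1 blocker (-0.94, 0.0416), and the medians were -0.05 and 0.23. No type 2 transcription factor of 11 passed under either blocker (medians -0.09 under the control and -0.22 under the CAV1 blocker), with 1 and 3 of them at an unadjusted p under 0.05, against 15.9% and 14.8% of all genes. The smallest p of these was that of Tfcp2l1, at -0.31 (limma adjusted p = 0.125) and -0.35 (0.11). No gene of these lists, or of the lipid, trafficking, clearance, transitional, type 1 or macrophage lists below, passed under the control blocker once PBS control blocker array 2 was left out, a fit that called 0.448% of all genes. The medians of the transitional and resident macrophage lists in that fit were 0.51 and -0.71.

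Genes of surfactant lipid synthesis fell under the control blocker in 3 of 24 cases, and none rose. They were Acly, which makes the acetyl-CoA for fatty acid synthesis (-0.48, limma adjusted p = 0.0235), Lpin1, a phosphatidate phosphatase (-0.51, 0.0302), and Insig1, which restrains sterol and fatty acid synthesis (-0.75, 0.0352). The median of the list was -0.44 under the control blocker, with 12 of 24 genes lower at an unadjusted p under 0.05, against 5.41% of all genes. It was 0.02 under the CAV1 blocker, where none passed and 1 of 24 was lower at an unadjusted p under 0.05, against 7.67%. Without PBS control blocker array 2 the control blocker median was -0.14, and without array 1 it was -0.56. The adipocyte list, whose cells share these enzymes, had a median of -1.30 under the control blocker and -0.40 under the CAV1 blocker. Its mean log2 signal was 9.27 to 11.30 in the bleomycin CAV1 blocker arrays, 9.30 to 10.55 in the bleomycin control blocker arrays, 10.21 to 11.02 in the PBS CAV1 blocker arrays and 11.09 to 11.52 in the PBS control blocker arrays, and its part in the lipid genes was not tested. After bleomycin, Gpam, which starts glycerolipid synthesis, was higher with the CAV1 than with the control blocker by 0.58 (limma adjusted p = 0.00185), 1 rise of 24.

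In the list of surfactant trafficking and lamellar bodies, 1 of 18 genes rose under the control blocker and none under the CAV1 blocker. It was Cd63, a tetraspanin of late endosomes and lysosome-related organelles (0.60, limma adjusted p = 0.0469). After bleomycin, Snap23, a SNARE protein of membrane fusion, was lower with the CAV1 than with the control blocker, at -0.89 (limma adjusted p = 0.0078), the single call in that list. In the list of surfactant clearance and its control, 3 of 16 genes rose and 1 fell under the control blocker. Csf2rb (0.74, limma adjusted p = 0.0174) and Csf2ra (0.63, 0.0273) encode the subunits of the GM-CSF receptor, through which alveolar macrophages are kept competent to clear surfactant. Abca1, a cholesterol exporter, rose by 0.85 (0.0255), and Marco, a scavenger receptor of alveolar macrophages, fell by 0.99 on the log2 scale (0.0253). Csf2rb also rose under the CAV1 blocker, by 0.77 (limma adjusted p = 0.0277), the single call among 16. The list shares 3 genes with the resident alveolar macrophage list, of whose 12 tested genes 2 fell under the control blocker (median -0.71) and none passed under the CAV1 blocker (median -0.33).

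**Figure D5:**
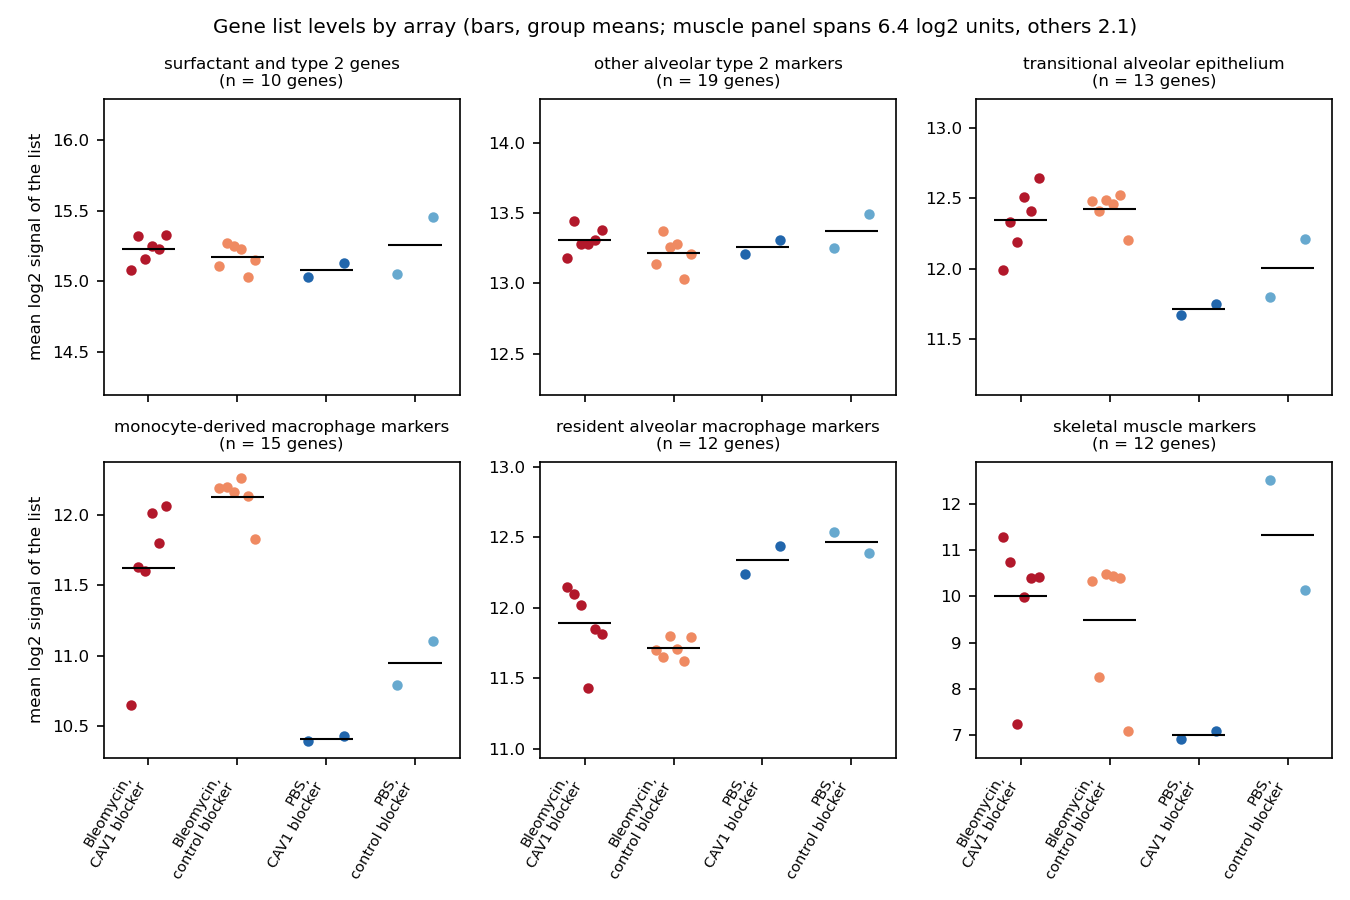
Mean log2 signal of 6 gene lists (vertical axis) is plotted for every array by group, with bars at group means. The 10 surfactant and type 2 genes stay between 15.03 and 15.46 in all arrays, while monocyte-derived macrophage markers lie at 10.65 to 12.26 in bleomycin arrays and 10.39 to 11.10 in PBS arrays, and skeletal muscle markers are low in 5 arrays.

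Markers of the cells that type 2 cells give rise to were compared in the same way. In the transitional alveolar epithelium list 3 of 13 genes rose under the control blocker (median 0.57), namely Hbegf (0.62, limma adjusted p = 0.0186), Tnfrsf12a (0.81, 0.0273) and Cldn4 (0.98, 0.0276). Under the CAV1 blocker 2 of 13 rose (median 0.43), Cldn4 (1.08, limma adjusted p = 0.0417) and Cdkn1a, an inhibitor of the cell cycle (2.01, 0.0432). After bleomycin, Itgb6 of this list was higher with the CAV1 than with the control blocker, by 0.64 (limma adjusted p = 0.0398), 1 rise of 13. Spock2 was the single called gene of 14 type 1 markers under both blockers, higher after bleomycin by 1.14 under the control blocker (limma adjusted p = 0.0184) and by 1.11 under the CAV1 blocker (0.0379). The median of the skeletal muscle markers was -1.88 under the control blocker and 3.12 under the CAV1 blocker, and that of the stratified squamous epithelium markers -0.95 and 3.86. The part of this tissue content in the transitional list was not tested. With the muscle level as a covariate, the Ctsh difference was 0.71 under the CAV1 blocker and did not pass (limma adjusted p = 0.213). Under the control blocker it was 0.79 in that fit and passed (limma adjusted p = 0.0345).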

How the data were processed

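Total RNA was hybridized to single-colour arrays. The deposited values are log2 signals, and the authors made them with limma, version not given, per the submitters' processing notes; background correction and normalization are not given in the sources used here. They were used as deposited, without detection or saturation marks. Spots were named from the platform annotation, updated through RefSeq accessions (29050 of 31465 named spots matched); the brightest spot stood for a gene. Genes above the array's 25th percentile in at least 2 arrays were tested. The 4 group means were estimated together from 16 arrays (limma 3.58.1, R 4.3.3, 12 residual degrees of freedom, two-sided, Benjamini-Hochberg over 20304 genes, called at adjusted p under 0.05), which was tested on simulated data. The number of arrays limits the precision. Correlations were computed with Python 3.11.15 and numpy 2.4.6.

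All 10 genes were described in every comparison. Lists were described by counts, medians and up to 4 called genes with the smallest p, or up to 2 values where none passed, not all of which are named. The genes and lists were chosen with earlier results of these data known. Alternatives covered filters, spots, normalization, moderation, array weights, samples in the fit, a replicate block, a muscle covariate, a fold minimum and leaving out arrays.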

Additional observations from a re-analysis of the deposited data

How the results depend on the processing

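Counts of the 10 genes called by limma depended on single arrays. Bleomycin against PBS under the control blocker called 1 gene, and called 0 with array weights, with the replicate block, with a log2 difference of at least 1 required, and without PBS control blocker array 2 and bleomycin CAV1 blocker array 6, an alternative chosen after seeing the data; leaving out 1 array gave 0 to 5. Under the CAV1 blocker the count of 1 became 0 with every spot tested on its own, with only the compared groups in the fit, with the replicate block, with the muscle covariate and with the log2 minimum, 2 with trend and robust moderation and 3 with array weights; leaving out 1 array gave 0 to 2. In PBS lungs the CAV1 against the control blocker called 0 to 3 and the interaction 0 to 4 when 1 array was left out, and in bleomycin lungs the count was 0 in all 29 alternatives. Of 50 log2 differences, 22 changed sign under some alternative, 13 that had not passed did pass under some alternative, both that had passed (Ctsh) were lost under some, and neither of these changed sign. Correlations between the deviations of same-numbered arrays ran from -0.69 to 0.35 between the bleomycin groups. The labels do not state whether the numbers pair the samples, and these correlations cannot decide it. Under the replicate block the Ctsh difference was 0.72 (limma adjusted p = 0.257) under the control blocker and 0.58 (0.483) under the CAV1 blocker. Over all genes, counts ran from 91 to 4075, 10 to 719, 249 to 394, 34 to 4024 and 0 to 3011 when 1 array was left out, for bleomycin under the control and the CAV1 blocker, the CAV1 blocker in bleomycin and in PBS lungs, and the interaction; under the other alternatives they ran from 0 to 523, 0 to 2712, 29 to 955, 2 to 267 and 0 to 45. The fits without PBS control blocker array 1 or array 2 left 1 array in that group, assumed to vary like the other groups. The cause of these changes was not tested.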
